A study of Homo sapiens with 12 samples.

Results

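The 9 genes described here span the TGF-beta pathway from the secreted signal to a downstream product. They were TGFB1 and TGFB2 (ligands), TGFBR1 and TGFBR2 (receptors), SMAD3 and SMAD9 (receptor-activated SMADs), SMAD6 and SMAD7 (inhibitory SMADs) and TGFBI, a secreted matrix protein. They were selected by gene symbol, and all 9 were found among the 25369 genes of the deposited tables. Steady-state poly(A)+ RNA was sequenced from 3 established human cancer cell lines: RKO (colon carcinoma), A549 (lung adenocarcinoma) and H460 (lung large cell carcinoma). Cultures of each line spent 24 h at 1% O2 (hypoxia) or stayed in normoxia, with 2 replicate libraries in each of the 6 groups, or 12 libraries in all. RKO and A549 were grown in DMEM and H460 in RPMI, both with fetal bovine serum, so line and medium cannot be told apart for H460. Every group stands for a single cell line, and the labels name no added TGF-beta ligand or inhibitor.

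TGF-beta ligands are secreted in a latent form, held in complexes with LTBP proteins, and act on a type II receptor (TGFBR2), which activates a type I receptor kinase (TGFBR1). The active receptor phosphorylates SMAD2 and SMAD3, which enter the nucleus with SMAD4, whereas SMAD1, SMAD5 and SMAD9 serve the related BMP branch. SMAD7 and SMAD6 are feedback inhibitors that are themselves induced by these signals, and in carcinoma cells the pathway is known both for growth arrest and for matrix production and epithelial-mesenchymal transition.

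Between 27350424 and 41757584 reads were counted per library. Levels are given as scaled RPKM, that is RPKM (reads per kilobase of gene and library size) after TMM scaling of all 12 libraries to each other. CA9 and NDRG1, well-known hypoxia-induced genes, matched the oxygen labels in every library: the highest normoxic level of CA9 was 3.69 scaled RPKM and the lowest hypoxic level was 34.7, against 30.9 and 194 for NDRG1. Of the markers of other cell types, COL1A2 and DCN (fibroblasts), PTPRC and CD3E (immune cells) and PECAM1 and CDH5 (endothelium) stayed under 0.5 CPM in all lines. The remaining immune marker, CD68, was over it in each line, and with it the summed immune list ran from 433 to 476 CPM in normoxic RKO and from 568 to 638 in hypoxic RKO. Of the 4 fibroblast markers, 1 was over 0.5 CPM in RKO, 2 in A549 and 2 in H460, and of the 3 endothelial markers 1 in RKO. The tissue labels were only partly visible. Of 5 colon markers, RKO had CDX1, VIL1, KRT20 and LGALS4 under 0.5 CPM in all its libraries, and only CDX2 reached it. Of 4 lung markers, only NAPSA reached it in A549, and NKX2-1 and NAPSA did in H460. SFTPB and SFTPC were under it in both lung lines, and NKX2-1 in A549. The colon marker LGALS4 reached it in A549. Of the epithelial markers, CDH1 was under it in RKO and EPCAM in H460. In H460, scaling by library size alone instead of TMM moved the median change of all genes by -0.35 on the log2 scale, against 0.08 in RKO and -0.09 in A549. The share of H460 calls that were higher in hypoxia then went from 47.5% to 26.5%, so H460 changes hold relative to TMM. In such bulk RNA, fewer cells with a transcript and less transcript per cell cannot be told apart.

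Before any change of oxygen, the 3 lines started from very different pathway levels. A549 held the highest normoxic level of 7 of the 9 genes, H460 that of TGFBR1 and RKO that of SMAD9. All 9 genes differed in each of the 3 line pairs (edgeR, adjusted p under 0.1 and a fold over 1.5). The same criteria were met by 60.2% of all genes between RKO and A549, by 61.9% between RKO and H460 and by 52.1% between A549 and H460, so differing between lines was common.

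The widest differences were in the ligand TGFB2 and in TGFBI. RKO had only 11 and 32 TGFB2 reads in normoxia, at 0.049 and 0.135 scaled RPKM, whereas A549 reached 37.6 and 52.2 and H460 15.4 and 14.6. The fitted normoxic difference between A549 and RKO was 480-fold for TGFB2 and 490-fold for TGFBI. The TGFB2 value was 907-fold without RKO normoxia replicate 2. TGFBI was among the most abundant transcripts of both lung lines, at 892 and 1131 scaled RPKM in A549 and 720 and 618 in H460, against 1.65 and 2.47 in RKO. Its 1.51-fold higher level in A549 than in H460 was the smallest of the line differences and no longer passed without A549 normoxia replicate 2 (adjusted p = 0.19) or without H460 normoxia replicate 2 (adjusted p = 0.182). TGFB1 had the narrowest range between lines. RKO held 24.0 and 34.9 scaled RPKM of it, A549 had 61.3 and 59.6, and H460 had 18.7 and 14.0. The 1.80-fold TGFB1 difference between RKO and H460 fell under the fold limit without RKO normoxia replicate 2 (log2 difference 0.54).

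The receptors followed different orders. TGFBR2 was at 46.1 and 38.6 scaled RPKM in normoxic A549, 3.70 and 3.45 in H460 and 2.14 and 1.93 in RKO, which placed A549 20.8-fold above RKO and 11.8-fold above H460. TGFBR1 was instead highest in H460, at 75.4 and 72.1, followed by A549 at 18.5 and 24.2 and RKO at 12.3 and 11.5. Per unit of gene length, A549 therefore held less TGFBR1 than TGFBR2 transcript (ratios of 0.402 and 0.627 in the normoxic replicates), and the other two lines held more, with ratios of 5.76 and 5.95 in RKO and 20.3 and 20.9 in H460.

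Among the SMADs, SMAD3, SMAD6 and SMAD7 were highest in A549 and lowest in RKO. Normoxic SMAD3 was at 55.2 and 56.9 scaled RPKM in A549, 12.6 and 14.7 in H460 and 5.20 and 3.52 in RKO. SMAD6 spanned a 222-fold range, from 16.1 and 17.0 scaled RPKM in A549 through 1.91 and 2.07 in H460 to 10 and 8 reads in RKO. SMAD7 was at 7.97 and 12.6 in A549, 0.845 and 0.894 in H460 and 0.324 and 0.204 in RKO. SMAD9 ran the other way: RKO had 2.78 and 2.42 scaled RPKM, H460 0.412 and 0.425, and A549 only 1 and 9 reads, a fitted difference of 117-fold between RKO and A549. On so few reads that value was 64.7-fold without A549 normoxia replicate 1 and 530-fold without A549 normoxia replicate 2.

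**Figure D1:**
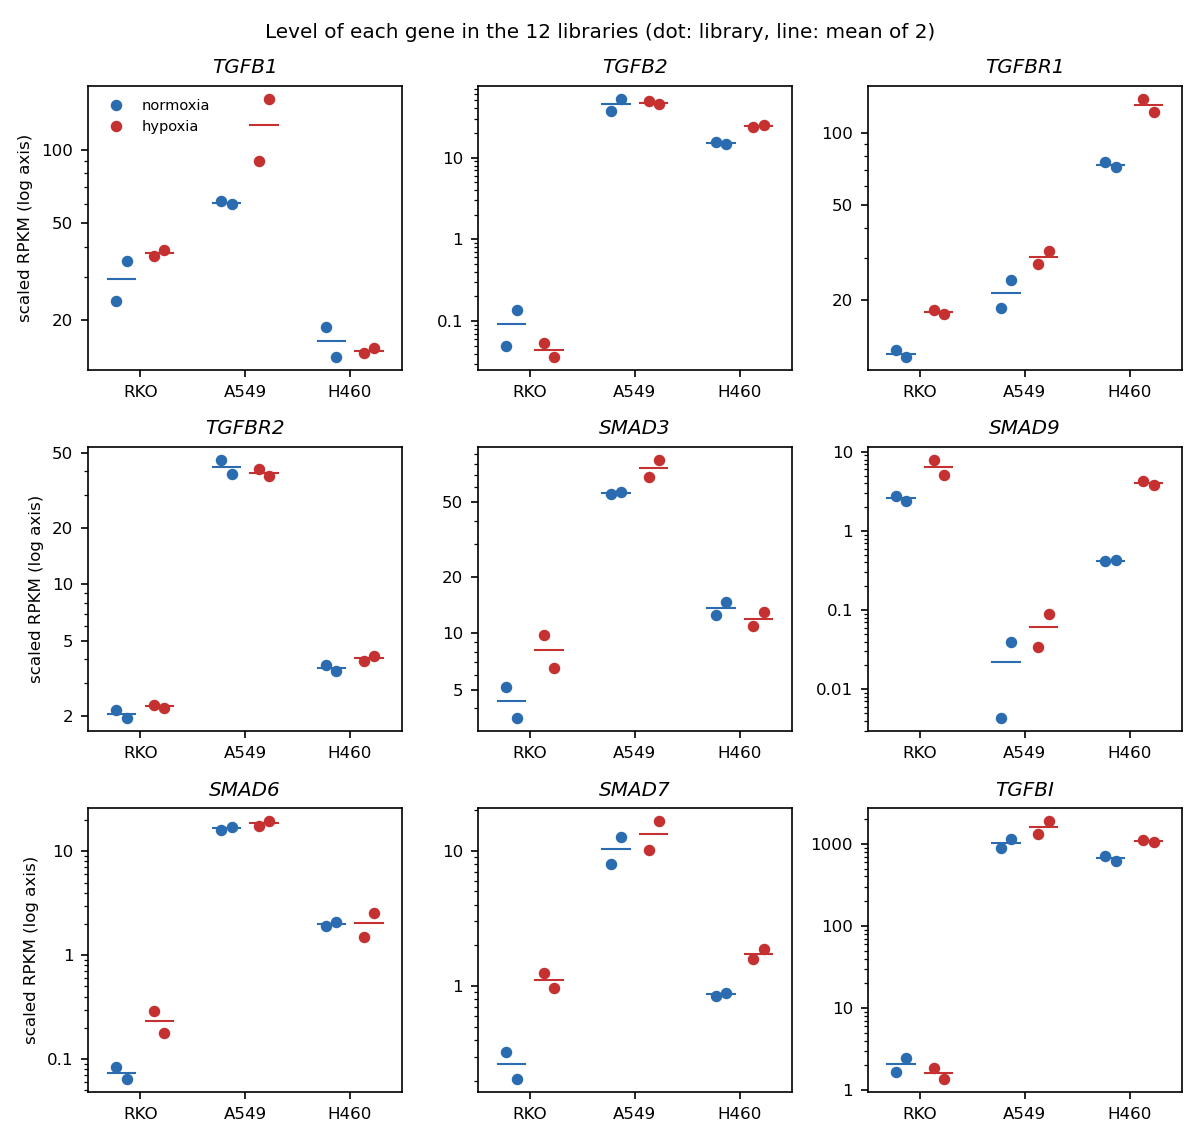
Scaled RPKM of the 9 genes in the 12 libraries, each panel with its own log axis, by line (x axis) and oxygen condition (blue normoxia, red hypoxia), with a dot per library and a line at the mean of 2. A549 sits highest for 7 genes in normoxia, H460 for TGFBR1 and RKO for SMAD9, where A549 has between 1 and 17 reads.

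Hypoxia was then compared with normoxia within each line. Calls needed an adjusted p under 0.1 from edgeR together with a change of more than 1.5-fold. None of the 9 genes was called lower in any line by the fits of single lines, with edgeR or DESeq2. In the joint fit of all 12 libraries TGFB2 was called lower in RKO (log2 change -1.03 ± 0.46, adjusted p = 0.0966), on 11 and 32 reads in normoxia and 13 and 8 in hypoxia, which overlap. In RKO, 8 were tested and 4 were called higher (SMAD3, SMAD6, SMAD7 and SMAD9), where 18.8% of the genes tested rose and 15.1% fell by the same criteria. In A549, 8 were tested and only TGFB1 was called, where 2.22% of all genes were called higher and 0.456% lower. In H460, all 9 were tested and 5 were called higher (SMAD7, SMAD9, TGFB2, TGFBI and TGFBR1), where 24.6% of all genes were called higher and 27.3% lower. TGFB2 in RKO and SMAD9 in A549 were too low to test. SMAD6 in RKO passed the low-count filter only through its hypoxia libraries, so it could only have come out higher. The libraries of the conditions did not overlap for 7 members in RKO, 5 in A549 and 6 in H460. The same held for 70.5% of all tested genes in RKO, 49.9% in A549 and 86.4% in H460, so these counts do not set the members apart. The tested members had a median log2 change of 0.68 (RKO), 0.39 (A549) and 0.67 (H460), and over all genes tested the medians were 0.0073, -0.0099 and -0.035. The RKO median of the members includes SMAD6, which could only have come out higher. With library size alone, 3 of the 5 H460 calls (TGFB2, TGFBI and TGFBR1) kept an adjusted p under 0.1 but dropped below the fold limit, with log2 changes of 0.33, 0.32 and 0.46.

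**Figure D2:**
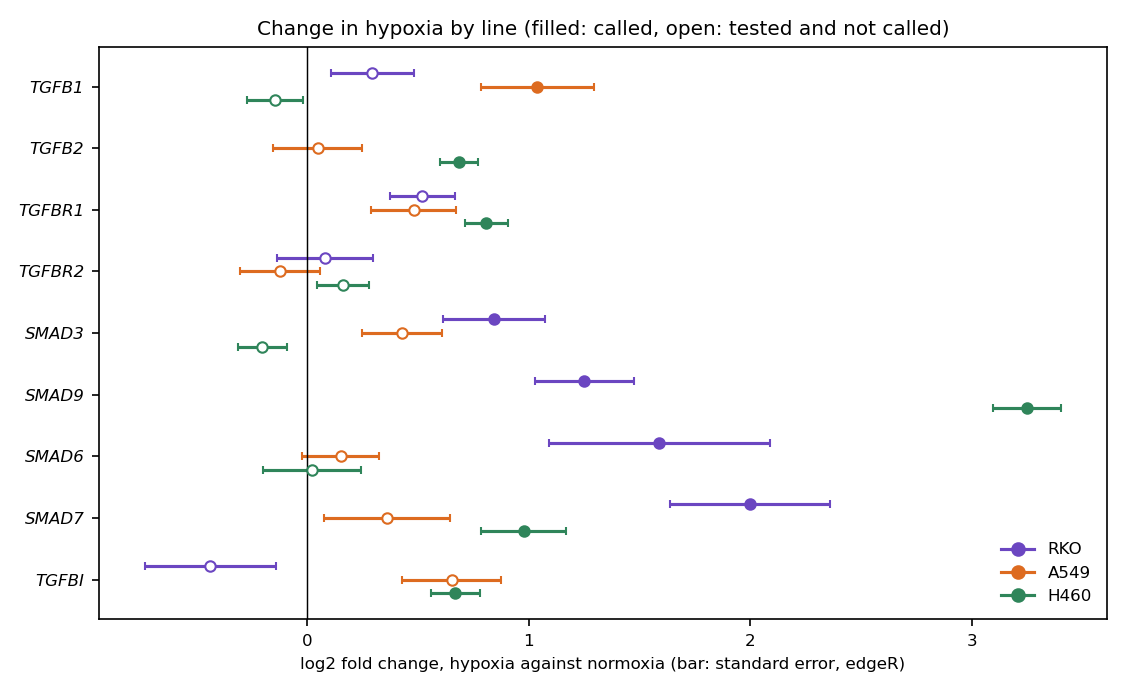
Log2 fold change in hypoxia against normoxia (x axis) for each gene and line, with bars of 1 standard error from edgeR, filled where the gene was called and open where it was tested and not called. SMAD9 in H460 lies farthest to the right at 3.25, and the TGFBR2 points of all 3 lines lie between -0.12 and 0.16.

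Among the ligands, TGFB1 was called in A549 and TGFB2 in H460. In the joint fit, the TGFB1 change in RKO minus that in A549 was -0.70 ± 0.33 and did not pass (adjusted p = 0.206). The TGFB2 change in A549 minus that in H460 was -0.64 ± 0.28 and did not pass either (adjusted p = 0.11). In A549, the normoxia libraries held 61.3 and 59.6 scaled RPKM of TGFB1, and the hypoxia libraries held 90.1 and 162. Both hypoxia libraries were above both normoxia libraries, but they were far from each other. The log2 change was 1.04 ± 0.26 (SE), with an adjusted p of 0.099 that just met the threshold. It did not meet it without A549 normoxia replicate 1 (adjusted p = 0.128), without normoxia replicate 2 (0.145) or without hypoxia replicate 2, where the change was 0.57 (adjusted p = 0.584). The call was also missed with RLE factors (adjusted p = 0.101), a minimum of 1 CPM (0.104) or library size alone (0.157), and it was kept with DESeq2. Without hypoxia replicate 1 the change was 1.39 (adjusted p = 3.74e-06). In RKO, TGFB1 was at 24.0 and 34.9 scaled RPKM in normoxia and 36.6 and 38.8 in hypoxia (log2 change 0.30 ± 0.19, adjusted p = 0.234). Without RKO normoxia replicate 2 that change was 0.59 and was called (adjusted p = 0.0435). In H460 the TGFB1 conditions overlapped, at 18.7 and 14.0 against 14.5 and 15.3.

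TGFB2 rose in H460, from 15.4 and 14.6 to 23.7 and 25.0 scaled RPKM, a log2 change of 0.69 ± 0.09 (adjusted p = 1.97e-05). The replicates lay close together in both conditions. In A549 TGFB2 stood higher at the start and its conditions overlapped (37.6 and 52.2 against 48.7 and 45.0, log2 change 0.05 ± 0.20). Per unit of length, the ratio of TGFB2 to TGFB1 transcript in H460 was 0.823 and 1.04 in normoxia and 1.63 and 1.64 in hypoxia. In A549 the same ratio was 0.613 and 0.875 in normoxia and 0.541 and 0.278 in hypoxia. RKO stayed at a ratio under 0.004 in every library, since 8 to 32 TGFB2 reads were counted there.

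Of the receptors, TGFBR1 was called in 1 line and TGFBR2 in none. TGFBR1 rose in H460, from 75.4 and 72.1 to 139 and 123 scaled RPKM (log2 change 0.81 ± 0.10, adjusted p = 1.36e-05). In RKO it was at 12.3 and 11.5 in normoxia and 18.2 and 17.4 in hypoxia. Its groups did not overlap and its adjusted p was 0.0164, but its 1.43-fold change was under the fold limit, so it was not called. With library size alone the RKO change was called (log2 change 0.60, adjusted p = 0.00845), and with that scaling the H460 call was lost, as given above. In A549 it was at 18.5 and 24.2 against 28.3 and 32.1 (log2 change 0.48 ± 0.19, adjusted p = 0.255). All 6 hypoxia libraries were thus above the normoxia libraries of their own line. TGFBR2 had log2 changes of 0.08 ± 0.22 (RKO), -0.12 ± 0.18 (A549) and 0.16 ± 0.12 (H460), and none passed the test. The ratio of TGFBR1 to TGFBR2 transcript per unit of length, which does not depend on library scaling, was 7.94 and 7.95 in hypoxic RKO against 5.76 and 5.95 in normoxia. In H460 it was 35.4 and 29.4 against 20.3 and 20.9. In A549 it was 0.688 and 0.852 against 0.402 and 0.627, and it was the only line in which TGFBR2 remained the more abundant of the pair.

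**Figure D3:**
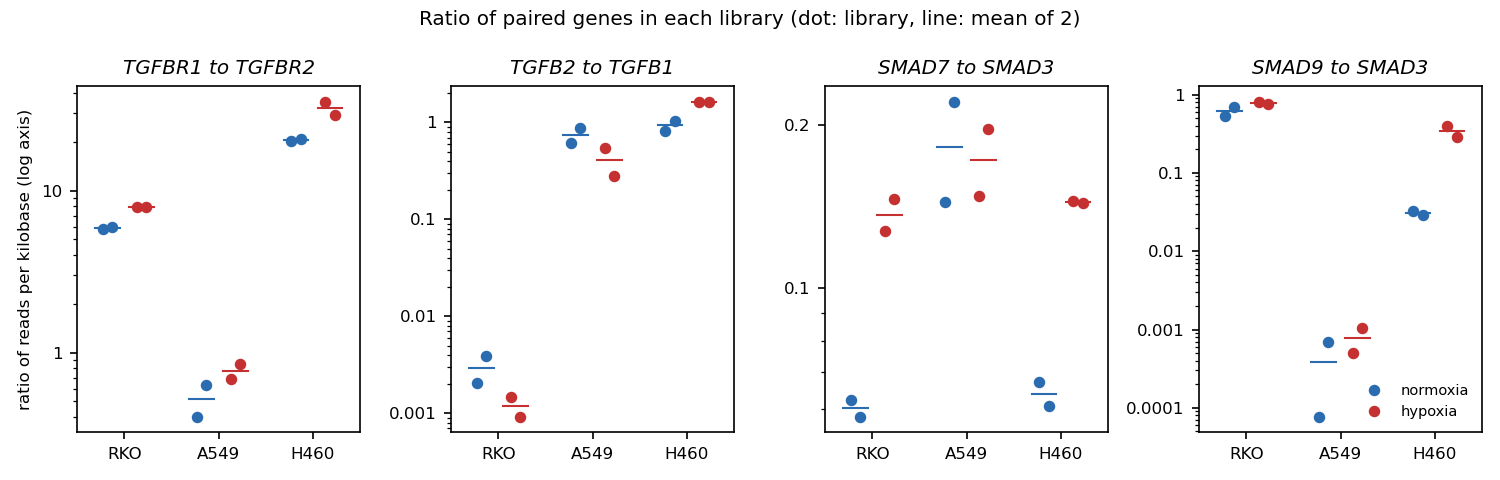
Ratio of reads per kilobase of 4 gene pairs in each library, on log axes, by line and oxygen condition, with a dot per library and a line at the mean of 2. Both hypoxic replicates lie above both normoxic ones for TGFBR1 to TGFBR2 in all 3 lines and for SMAD7 to SMAD3 in RKO and H460, whereas the A549 conditions overlap for SMAD7 to SMAD3.

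SMAD9, which transduces BMP signals, had the largest change of any member, in H460. It had 65 and 81 reads there under normoxia and 572 and 605 under hypoxia, a shift from 0.412 and 0.425 to 4.32 and 3.76 scaled RPKM. That is a 9.51-fold rise, with a log2 change of 3.25 ± 0.15 (adjusted p = 8.08e-09). In RKO, where it was higher to begin with, it went from 2.78 and 2.42 to 7.90 and 5.03 scaled RPKM (log2 change 1.25 ± 0.22, adjusted p = 0.00178). In both lines every hypoxia library was above every normoxia library. A549 had 1 and 9 reads in normoxia and 8 and 17 in hypoxia, which is too few to test. In the joint fit, which tested it, the A549 log2 change was 1.43 ± 0.69 and did not pass (adjusted p = 0.225).

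SMAD3, which transduces TGF-beta signals, was called in RKO alone. Its change differed between the 3 lines (interaction, adjusted p = 0.0276). By pairs in the joint fit, RKO and H460 differed (adjusted p = 0.0133). RKO minus A549 (0.46 ± 0.29, adjusted p = 0.359) and A549 minus H460 (0.63 ± 0.29, adjusted p = 0.127) did not pass. In RKO SMAD3 rose from 5.20 and 3.52 to 9.75 and 6.57 scaled RPKM (log2 change 0.84 ± 0.23, adjusted p = 0.0151). Without RKO normoxia replicate 2 the change was 0.58, under the fold limit. In A549 SMAD3 was at 55.2 and 56.9 in normoxia and 68.2 and 84.2 in hypoxia (log2 change 0.43 ± 0.18, adjusted p = 0.28). In H460 the conditions overlapped, at 12.6 and 14.7 against 10.9 and 13.1 (log2 change -0.20 ± 0.11, adjusted p = 0.12). The per-length ratio of SMAD9 to SMAD3 in H460 was 0.0328 and 0.0289 in normoxia and 0.396 and 0.288 in hypoxia. In RKO it was 0.535 and 0.688 in normoxia and 0.810 and 0.765 in hypoxia, so the SMAD9 transcript came close to the SMAD3 transcript there without passing it.

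The inhibitory SMAD7, which blocks the type I receptor, rose in RKO and H460. RKO had 42 and 28 SMAD7 reads in normoxia and 174 and 124 in hypoxia, a change from 0.324 and 0.204 to 1.25 and 0.960 scaled RPKM. The log2 change was 2.00 ± 0.36 (adjusted p = 0.00192), the largest of the RKO members. In H460 it went from 0.845 and 0.894 to 1.58 and 1.88 scaled RPKM (log2 change 0.98 ± 0.19, adjusted p = 0.000656). In A549, which had the most SMAD7 in either condition, the groups overlapped at 7.97 and 12.6 against 10.1 and 16.6. The per-length ratio of SMAD7 to SMAD3 went from 0.0623 and 0.0580 to 0.128 and 0.146 in RKO. In H460 it went from 0.0672 and 0.0607 to 0.145 and 0.144. In A549 this ratio was 0.144 and 0.221 in normoxia and 0.148 and 0.197 in hypoxia. The hypoxic ratios of RKO and those of H460 thus each bracketed the lowest A549 value, closely in H460 (0.1451 and 0.1439 against 0.1443).

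SMAD6, the inhibitor tied mainly to the BMP branch, was near the detection limit in RKO. It was called higher there on 10 and 8 reads in normoxia and 37 and 21 in hypoxia (log2 change 1.59 ± 0.50, adjusted p = 0.028). The call was lost with DESeq2 (adjusted p = 0.149) and without RKO normoxia replicate 2 (adjusted p = 0.122), and the gene failed the low-count filter without either hypoxia library. In A549 it was at 16.1 and 17.0 scaled RPKM in normoxia and 17.7 and 19.6 in hypoxia (log2 change 0.15 ± 0.17). In H460 the conditions overlapped, at 1.91 and 2.07 against 1.51 and 2.54. The per-length ratio of SMAD6 to SMAD7 in H460 was 2.26 and 2.32 in normoxia and 0.956 and 1.35 in hypoxia.

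TGFBI, a matrix protein named for its induction by TGF-beta, rose in H460 from 720 and 618 to 1101 and 1052 scaled RPKM (log2 change 0.67 ± 0.11, adjusted p = 0.000177). Without H460 normoxia replicate 2 the change was 0.52, under the fold limit. In A549 it was at 892 and 1131 in normoxia and 1313 and 1903 in hypoxia, a 1.57-fold change whose adjusted p of 0.209 did not pass. The conditions did not overlap there, and it was called without A549 hypoxia replicate 1 (log2 change 0.88, adjusted p = 0.0212), without the low-count filter (adjusted p = 0.085) and in the joint fit (0.0881). In RKO the conditions overlapped at 1.65 and 2.47 against 1.84 and 1.34.

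The regions just before the start sites of 4 members are shown as examples, chosen with their motif content known: 3 that hold the same palindrome and 1 without a core. They are RefSeq promoters from GRCh38.p14, each placed at a single site of GRCh37 by exact match, printed 5′ to 3′ on the gene's strand from base -250. They stop before the gene's start as given by RefSeq or by the deposited coordinates, whichever comes first. Capitals mark the cores of the hypoxia response element, ACGTG and GCGTG, on either strand.
SMAD9, minus strand, chr13:37494410-37494625: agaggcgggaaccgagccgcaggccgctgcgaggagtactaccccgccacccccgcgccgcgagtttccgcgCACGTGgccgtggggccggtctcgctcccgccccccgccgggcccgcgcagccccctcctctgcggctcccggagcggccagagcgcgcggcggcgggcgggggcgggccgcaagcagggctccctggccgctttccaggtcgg
SMAD7, minus strand, chr18:46477336-46477585: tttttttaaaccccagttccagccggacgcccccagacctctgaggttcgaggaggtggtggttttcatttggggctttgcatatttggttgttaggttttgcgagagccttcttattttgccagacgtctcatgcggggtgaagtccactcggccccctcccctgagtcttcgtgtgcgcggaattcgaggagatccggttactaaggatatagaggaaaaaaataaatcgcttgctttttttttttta
SMAD3, plus strand, chr15:67357690-67357939: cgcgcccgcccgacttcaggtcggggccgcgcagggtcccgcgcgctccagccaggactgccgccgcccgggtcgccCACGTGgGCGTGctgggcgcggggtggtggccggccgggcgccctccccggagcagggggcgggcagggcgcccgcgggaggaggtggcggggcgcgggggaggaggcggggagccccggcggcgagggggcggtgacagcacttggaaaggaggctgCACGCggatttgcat
TGFB2, plus strand, chr1:218518428-218518675: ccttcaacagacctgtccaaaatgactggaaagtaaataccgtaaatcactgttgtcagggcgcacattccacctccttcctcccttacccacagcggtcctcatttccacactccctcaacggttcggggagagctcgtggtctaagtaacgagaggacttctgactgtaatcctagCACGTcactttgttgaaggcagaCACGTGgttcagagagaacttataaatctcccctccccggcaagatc
SMAD9, SMAD3 and TGFB2 each hold the palindrome CACGTG, which reads as ACGTG on both strands and begins at base -178 in SMAD9, -173 in SMAD3 and -49 in TGFB2. TGFB2 has a further ACGTG core at -72, and SMAD3 has GCGTG cores at -166 and -15. No core lies in the SMAD7 stretch. Another RefSeq promoter of SMAD7, with its start 1378 bases from the deposited start, held 1 ACGTG and 2 GCGTG cores. Of the members not shown, SMAD6, TGFB1, TGFBR1 and TGFBR2 held a core in their promoter and TGFBI held none. Within the full 300 bases around the RefSeq start nearest to the deposited gene start, 7 of the 9 members held ACGTG or GCGTG, and 48.4% of all 35116 RefSeq promoters of the same length did. ACGTG itself was held by 4 of the 9 and by 21.4% of all promoters. The share of all promoters with the palindrome CACGTG was not counted. The SMAD box GTCTAGAC was found in 1 member, SMAD6, which also held ACGTG, and in 0.202% of all promoters. Its shorter form GTCT was in 84% of all promoters. A match is a string of letters and not a measured binding site.

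The change in hypoxia was then compared between lines in a joint edgeR fit of all 12 libraries. The 3 lines differed in 7 of the 9 genes (adjusted p under 0.1), where 48.8% of all 15595 genes differed. TGFBR1 (adjusted p = 0.399) and TGFBR2 (0.403) were the 2 genes that did not pass. RKO and A549 differed in 3 members (14.6% of all genes), RKO and H460 in 6 (37.6%) and A549 and H460 in 1 (36%). The comparisons share libraries, because each line enters 2 of the 3 pairs.

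The log2 change of SMAD7 was larger in RKO than in A549 by 1.69 ± 0.43 (adjusted p = 0.0291), which did not pass without RKO normoxia replicate 2 (adjusted p = 0.113). For SMAD9 the RKO change minus the H460 change was -1.95 ± 0.44 (adjusted p = 0.00484). For SMAD3 it was 1.09 ± 0.30 (adjusted p = 0.0133). For TGFB1 the A549 change minus the H460 change was 1.19 ± 0.34 (adjusted p = 0.0177). The SMAD9, SMAD3 and TGFB1 differences passed in all 12 fits that left out 1 library. The TGFBI difference between RKO and H460, -1.06 ± 0.34, did not pass without RKO normoxia replicate 2 (-0.73) or RKO hypoxia replicate 2 (-0.83). It also did not pass in edgeR with library size alone (-0.68, adjusted p = 0.107). Limma on log2 RPKM missed it as well, at pseudocounts 0.1 (adjusted p = 0.119) and 1 (0.14). The TGFB2 difference between RKO and H460, -1.73 ± 0.50, rests on 8 to 32 RKO reads per library and did not pass without RKO normoxia replicate 2 (adjusted p = 0.306). The SMAD9 changes of A549 and H460 differed by -1.84 ± 0.86, which did not pass (adjusted p = 0.126).

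Of the BMP-branch SMADs, SMAD1 fell in the 2 lines in which SMAD9 rose. SMAD1 fell in RKO from 8.21 and 7.35 to 3.93 and 4.51 scaled RPKM (log2 change -0.94 ± 0.19, adjusted p = 0.00344). In H460 it fell from 4.89 and 5.35 to 1.76 and 1.89 (log2 change -1.50 ± 0.14, adjusted p = 1.66e-06). Per unit of length, SMAD1 was above SMAD9 in all 4 normoxia libraries and below it in all 4 hypoxia libraries. In A549 SMAD1 was at 2.51 and 3.79 in normoxia and 2.30 and 2.11 in hypoxia (adjusted p = 0.38). SMAD1 in A549 and SMAD5 were named after their values were seen. SMAD5 was the most abundant of the 3 in every library. It was at 20.03 and 17.1 against 22.8 and 17.1 in RKO and 19.2 and 20.4 against 28.8 and 30.5 in H460, where its log2 change of 0.57 ± 0.09 (adjusted p = 9.99e-05) was under the fold limit.

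**Figure D4:**
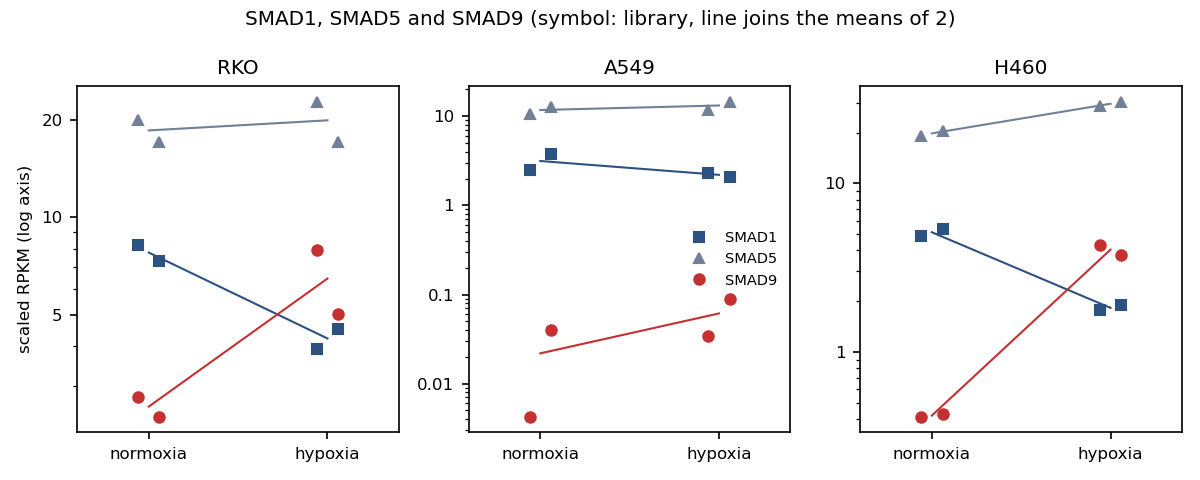
Scaled RPKM of SMAD1, SMAD5 and SMAD9 in normoxia and hypoxia, 1 panel per line with its own log axis, with a symbol per library and lines joining the means of 2. The SMAD1 and SMAD9 lines cross in RKO and H460, and SMAD9 stays under 0.1 in A549.

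The other genes of the pathway were kept in 6 lists with 72 genes: other ligands, the latent complex and its activation, other receptors, other SMADs, inhibitors and turnover factors, and target genes. In RKO, 50 were tested, 17 were called higher and 3 lower (18.8% and 15.1% of all genes), with a median log2 change of 0.21 (0.0073 over all genes). In H460, 59 were tested, 22 were called higher and 9 lower (24.6% and 27.3% of all genes), with a median of 0.50 (-0.035 over all genes). With library size alone these H460 calls became 17 higher and 16 lower. In A549, 60 were tested, and 2 were called higher and 0 lower by edgeR (2.22% and 0.456% of all genes). Their median log2 change was 0.23 (-0.0099 over all genes). By DESeq2, 7 were called higher and 0 lower, where 608 of all 14251 genes were called higher and 263 lower. The A549 count rested on single libraries, as it was 20 without hypoxia replicate 1 and 5 without normoxia replicate 2. In RKO 2 and in H460 4 of the called genes passed the low-count filter through 1 condition only. They were COL1A1 and a receptor in RKO, and BMP2, LRRC32, NOG and INHBE in H460. All but INHBE passed through hypoxia, so they could only have come out higher.

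In the latent complex list, RKO had 4 calls among 7 tested, each of them higher, where 18.8% of all genes were called higher. Of the called genes with a mean of at least 100 reads, its largest rise in RKO and in H460 was LTBP4, which tethers latent TGF-beta to the matrix. It went from 5.09 and 7.20 to 19.0 and 17.8 scaled RPKM in RKO (log2 change 1.52 ± 0.18) and from 22.7 and 23.3 to 41.97 and 38.9 in H460 (0.80 ± 0.09, or 0.44 and under the fold limit with library size alone). In A549, LTBP4 was at 25.3 and 36.6 against 41.8 and 95.6 (adjusted p = 0.167). H460 had 3 of 9 latent complex genes called higher and 1 lower (24.6% and 27.3% of all genes), and A549 had 0 of 10. Of the H460 rises, LRRC32 passed the low-count filter through its hypoxia libraries only.

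Among the other receptors, 2 of 8 were called higher in RKO, and 2 of 9 higher and 2 lower in H460. Of the 2 in RKO, only ACVR1 passed the low-count filter in both conditions. The shares over all genes were 18.8% higher and 15.1% lower in RKO, and 24.6% higher and 27.3% lower in H460. ACVR1, a type I receptor for BMPs and activins, had the largest rise at that read minimum in both, with log2 changes of 0.62 ± 0.18 and 0.82 ± 0.11. In RKO its call was lost without either normoxia library (adjusted p = 0.104 and 0.106), and in H460 it was 0.47 and under the fold limit with library size alone. TGFBR3, the co-receptor betaglycan, fell in H460 by 1.37 on the log2 scale (SE 0.19). Of the other SMADs, SMAD2 (log2 change 0.86 ± 0.09, or 0.50 with library size alone and under the fold limit) had the largest rise in H460, where 2 of 4 were called higher and SMAD1 lower, and SMAD1 was the only call in RKO.

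Inhibitors and turnover factors gave 4 higher and 1 lower of 15 in RKO, where 18.8% of all genes were called higher and 15.1% lower. In H460 they gave 7 higher and 1 lower of 16 (24.6% and 27.3% of all genes). A549 had 0 calls among 17 tested (2.22% and 0.456% of all genes). CHRD, an extracellular BMP antagonist, had the largest rise in RKO, from 1.65 and 1.98 to 5.31 and 4.503 scaled RPKM (log2 change 1.37 ± 0.22). STRAP, a partner of SMAD7 at the receptor, fell there from 166 and 147 to 84.4 and 85.5 (log2 change -0.94 ± 0.15). In H460 the largest rise was in NOG, another BMP antagonist, from 14 and 6 reads to 173 and 279, and it passed the low-count filter through its hypoxia libraries only. Its fold of 25.8 was 45.7 without H460 normoxia replicate 1 and 16.4 without H460 normoxia replicate 2. TGIF2, a repressor of SMAD targets, had the largest H460 fall (log2 change -1.29 ± 0.19). Of the other ligands, BMP8B was the single call of 4 in RKO (log2 change 0.99 ± 0.24, with 18.8% of all genes called higher). H460 had 3 of 9 higher and 3 lower (24.6% and 27.3% of all genes). Of these H460 rises, BMP2 passed the low-count filter through its hypoxia libraries only. INHA, the inhibin alpha subunit, had the largest H460 rise among ligands with a mean of at least 100 reads (log2 change 3.11 ± 0.13). GDF11 had the largest fall at that minimum (-0.70 ± 0.15), and below it BMP8B (-1.77) and INHBE (-3.27) fell further. INHBE was named after its values were seen and passed the low-count filter through its normoxia libraries only.

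Target genes of the pathway were called higher in 6 and lower in 1 of 12 in RKO, in 2 and 0 of 12 in A549, and in 5 and 1 of 12 in H460. Over all genes 18.8%, 2.22% and 24.6% were called higher and 15.1%, 0.456% and 27.3% lower. Of the RKO rises, COL1A1 passed the low-count filter through hypoxia only, so it could only have come out higher. CDKN2B, a cell cycle inhibitor induced by TGF-beta, led in RKO, from 3.26 and 3.27 to 10.6 and 10.1 scaled RPKM (log2 change 1.61 ± 0.17), and ID3, a BMP target, fell by 0.62 (SE 0.18). The ID3 call was lost without RKO hypoxia replicate 1 (log2 change -0.42), in the joint fit (-0.56) and with library size alone (-0.53), each under the fold limit. SNAI2, a transcription factor of epithelial-mesenchymal transition, led in H460, from 2.09 and 1.78 to 14.1 and 14.2 (log2 change 2.86 ± 0.14), and CTGF fell by 0.74 (SE 0.14). The CTGF call was lost without H460 hypoxia replicate 2 (log2 change -0.51) and in the joint fit (adjusted p = 0.221). COL1A1 led in A549, at 7.93 and 14.1 in normoxia and 21.9 and 72.5 in hypoxia (log2 change 2.08 ± 0.48, adjusted p = 0.0824). The change was 0.99 without A549 hypoxia replicate 2 and 2.69 without A549 hypoxia replicate 1. It was not called without A549 normoxia replicate 1 (adjusted p = 0.101), by DESeq2 (0.167) or with library size alone (0.141), and it also stands on the fibroblast marker list. BMP8B and CTGF were each called higher in RKO and lower in H460, with log2 changes of 0.99 and -1.77 for BMP8B. CTGF in RKO went from 9.04 and 7.64 to 20.7 and 17.4 scaled RPKM (adjusted p = 0.00099). CTGF in RKO and BMP8B in H460 were named after their values were seen.

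Summed mesenchymal markers (VIM, ZEB1 and CDH2) ran between 1071 and 1154 CPM in normoxic H460 and between 4450 and 4813 in hypoxic H460. In A549 they ran from 2050 to 2370 and from 3475 to 4481, and in RKO from 100.2 to 131 and from 112 to 126. Summed fibroblast markers, COL1A1 included, went from between 47.3 and 83.6 to between 130 and 430 CPM in A549 with COL1A2 and DCN under 0.5 CPM. Summed epithelial markers (EPCAM, CDH1, KRT8, KRT18 and KRT19) ran from 186 to 196 CPM in normoxic RKO and from 104 to 108 in hypoxic RKO. In H460 they ran from 1790 to 1925 and from 2340 to 2526, and in A549 from 2552 to 3108 and from 2474 to 2483. The part of these markers in the changes of the pathway genes was not tested.

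**Figure D5:**
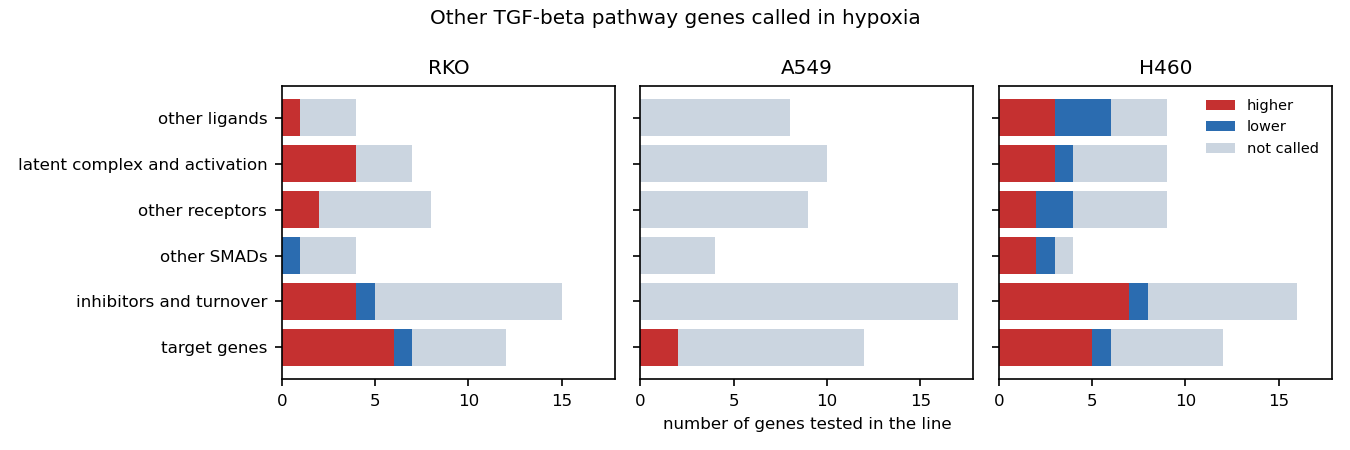
Number of tested genes in each of 6 lists (x axis) that were called higher in hypoxia (red), called lower (blue) or not called (grey), by line. H460 has calls in both directions in every list, RKO has 17 red and 3 blue calls, and A549 has 2 red calls, both among the target genes.

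Likeness across the 6 groups was described by the root mean square difference between group means of log2 CPM, with a pseudocount of 0.5 and each gene centred on its own mean. Over these 6 groups, SMAD3 and SMAD7 differed by 0.48, SMAD7 and TGFBR2 by 0.51, SMAD3 and TGFBR2 by 0.52, and TGFB2 and TGFBI by 0.73. These pairs share the A549 maximum and, for TGFB2 and TGFBI, the low RKO level. SMAD9 was at least 2.55 from each of the other members. Over all genes in the joint fit, the 2 nearest to TGFBR2 were TCN2 (0.069) and USP32P2 (0.15), and those nearest to TGFBR1 were PLEKHA5 (0.18) and SLC44A1 (0.18). NR3C1 (0.16) and ALDH3B1 (0.19) were nearest to TGFB2, FADS1 (0.29) and MSN (0.40) to TGFBI, and TAX1BP3 (0.22) and CGB7 (0.24) to TGFB1. For the SMADs the nearest were PHYHIP (0.23) and ST3GAL5 (0.23) for SMAD3, COL16A1 (0.27) and CACNG6 (0.28) for SMAD6, and PVRL4 (0.27) and PDE2A (0.32) for SMAD7. For SMAD9 the nearest were FEZF1-AS1 (0.51) and MCF2L (0.54), which were farther off than the nearest genes of any other member. Differences between lines dominate this measure, which rests on 6 group means.

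Genomic positions on GRCh37 are those of the deposited table, 1-based. SMAD3 (chr15:67358195-67487533, plus strand) and SMAD6 (chr15:66994674-67074337, plus strand) lie on the same chromosome. SMAD7 is at chr18:46446223-46477081 and SMAD9 at chr13:37418968-37494409, both on the minus strand. TGFB1 is at chr19:41836436-41859838 on the minus strand, TGFB2 at chr1:218518676-218617961 and TGFBI at chr5:135364584-135399507 on the plus strand, TGFBR1 at chr9:101867412-101916473 and TGFBR2 at chr3:30647994-30735633, also on the plus strand. Values are exon reads of the whole gene, so isoforms were not told apart.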

How the data were processed

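The 12 libraries were grouped by line and oxygen condition as the sample titles give them. The authors trimmed single-end reads, aligned them with TopHat2 2.0.13 to GRCh37/hg19, removed alignments of low mapping quality and counted exon reads with HTSeq 0.6.1 in reverse-stranded mode (versions per the submitters' processing notes). They deposited raw counts per gene and library, which entered the main fits unchanged. The authors also deposited RPKM values, which equal the count per kilobase and library total and served in alternatives only. Antisense reads were kept apart by strand. Of 8 rows whose deposited span overlaps a member, the only one on the same strand with reads had at most 476 per library.

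Each line was fitted on its 4 libraries with edgeR 4.0.16 in R 4.3.3 (TMM, quasi-likelihood F test), over genes above 0.5 CPM in at least 2 libraries. A gene was called at a Benjamini-Hochberg adjusted p under 0.1 and a fold over 1.5, as in the study, which used DESeq2. Standard errors were computed as the absolute log2 change over the square root of F, and their median over all genes was 0.184 (RKO), 0.223 (A549) and 0.114 (H460). Line differences came from a joint fit of 12 libraries, by adjusted p alone for the hypoxia effect. The scripts were tested on simulated counts. All adjusted p values are from edgeR unless DESeq2 1.42.0 or limma 3.58.1 is named.

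Named list genes are the called gene with the largest rise and that with the largest fall per list and line, among those with a mean of at least 100 reads. Values of 1 list gene are not reported here. The members and lists were chosen with earlier results of these data known. The study calls replicates independent biological duplicates without describing separate cultures, so p-values measure the spread between these libraries. Replicate libraries differed by more than counting error (chi-square per degree of freedom from 9.60 to 72.0).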

Additional observations from a re-analysis of the deposited data

Results flagged for a closer look

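Each of the following hypoxia effects differed between 2 lines by the interaction test of the joint edgeR fit (adjusted p under 0.1), as log2 effect of the first line minus that of the second. Between RKO and A549 the differences were 1.49 for SMAD6, 1.69 for SMAD7 and -1.04 for TGFBI. Between RKO and H460 they were 1.09 for SMAD3, 1.62 for SMAD6, 1.07 for SMAD7, -1.95 for SMAD9, -1.73 for TGFB2 and -1.06 for TGFBI. TGFB1 gave 1.19 for A549 minus H460.

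Of these 10, the SMAD3, SMAD9 and TGFB1 differences passed in all 12 fits that left out 1 library. The SMAD7 difference between RKO and A549 did not pass without RKO normoxia replicate 2 (adjusted p = 0.113), and the TGFB2 difference not without the same library (0.306). The TGFBI difference between RKO and H460 did not pass without RKO normoxia replicate 2 (-0.73) or RKO hypoxia replicate 2 (-0.83). It also did not pass in edgeR with library size alone (adjusted p = 0.107) or with limma at pseudocount 0.1 (0.119) or 1 (0.14). The SMAD6 difference between RKO and A549 (adjusted p = 0.0631) did not pass without RKO normoxia replicate 1 or 2, RKO hypoxia replicate 1, A549 normoxia replicate 2 or A549 hypoxia replicate 1 (adjusted p from 0.108 to 0.262), and that between RKO and H460 did not pass without RKO hypoxia replicate 1 (adjusted p = 0.107). The TGFBI difference between RKO and A549 (adjusted p = 0.0695) did not pass without RKO normoxia replicate 2, RKO hypoxia replicate 2, A549 normoxia replicate 1, A549 hypoxia replicate 2 or either H460 hypoxia library (adjusted p from 0.103 to 0.248). The SMAD7 difference between RKO and H460 (adjusted p = 0.0904) did not pass without RKO normoxia replicate 2, RKO hypoxia replicate 1 or any of the 4 H460 libraries (adjusted p from 0.112 to 0.296). Groups of 2 libraries were too small for a test of single outlying samples.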

How the results depend on the processing

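With TMM replaced by library size alone, H460 gave 2 called members instead of 5 (SMAD7 and SMAD9), and limma on log2 RPKM gave 1 (SMAD9) with either pseudocount, 0.1 or 1, and without the filter. The H460 count ran from 4 to 5 when 1 library was left out. The A549 count of 1 became 0 with RLE factors, library size alone, CPM over 1 and every limma setting, and 2 (TGFB1 and TGFBI) without a low-count filter, in the joint fit and with the replicate block, and it ran from 0 to 2 without single libraries. The RKO count of 4 ran from 3 to 4 without single libraries. It was 3 with CPM over 1, DESeq2 and limma at pseudocount 1, and 5 with library size alone and limma at 0.1 (TGFBR1 added) and in the joint fit (4 higher and TGFB2 lower). Other A549 pathway genes called were 0 with library size alone and with every limma setting, 9 with no filter, 7 with DESeq2, 16 with the replicate block and 11 in the joint fit, and ran from 2 to 20 without single libraries, against 2. The members whose hypoxia effect differed between lines were 4 with limma at pseudocount 1, against 7, and ran from 5 to 7 without single libraries. The normoxic counts of 9 ran from 7 to 9 under all settings. The A549 calls over all genes shifted as well, from 316 higher and 65 lower in the main fit. They were 151 and 41 with library size alone, 587 and 213 with no filter, and 608 and 263 with DESeq2. With the replicate block they were 1189 and 723, and in the joint fit 957 and 440. The cause of these shifts was not tested.

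Signs changed only for log2 changes that were not called. TGFB2 in A549 was -0.045 with library size alone, -0.026 with limma at pseudocounts 0.1 (with and without filter) and 1, and ran from -0.17 to 0.30 without single libraries. SMAD6 in H460 was -0.33 with library size alone, -0.37 with limma at 0.1 (with and without filter), -0.24 at 1 and -0.0035 with the replicate block, and ran from -0.39 to 0.36 without single libraries. TGFBR2 in H460 was -0.19 with library size alone and with limma at 0.1 (with and without filter) and -0.15 at 1. Without single libraries, TGFBR2 in A549 ran from -0.25 to 0.015, SMAD7 in A549 from -0.026 to 0.72 and TGFB1 in H460 from -0.38 to 0.037.

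Same-numbered replicates are not said to share a day or batch, and each comparison has 2 pairs, so the block was used only here. Deviations of same-numbered libraries correlated at 0.34 in RKO, 0.36 in A549 and 0.13 in H460. With the replicate block, 4 members were called in RKO and 5 in H460, as without it, and 2 in A549, where TGFBI was added (log2 change 0.64, adjusted p = 0.00219). The values of SMAD9 in A549 and of TGFB2 and SMAD6 in RKO rest on few reads.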
